A study of Mus musculus with 15 samples.

Results

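In mouse sperm, 9313 of 204492 listed CpGs (4.55%) held intermediate methylation, between fully methylated and unmethylated DNA. They were chosen by their measured level: a mean of at least 50% and under 80% over all 15 libraries, a mean coverage under 5 times the median (under 160 reads), and a place outside the ribosomal DNA block on chromosome 17. The level range alone held 9413 CpGs, of which 100 were left out for depth or as ribosomal DNA. Because the level selected the members, their levels are given as a description. The DNA came from sperm of C57BL/6 males of the generation labelled G1. The assay was reduced representation bisulfite sequencing: MspI, an enzyme that cuts at CCGG, enriches CpG-rich fragments, and cytosines left unconverted by bisulfite count as methylated. One group carries the label PR, protein restricted per the series design (8 libraries), and the other the label Control (7 libraries). Whether the sampled mice or a parent ate the diet is not in the labels, which also give no age, batch, pooling or shared animal. No label tells that they came from separate animals, and the p-values therefore reflect a spread between samples that may be technical.

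Methylation of cytosine at CpGs is copied at cell division by a maintenance methyltransferase, and in the male germ line most of the genome regains it before birth, outside CpG-rich promoters. A sperm nucleus is haploid, so a CpG is either methylated or not on each molecule, and a partial level in a pool of sperm is a share of molecules. A different share of cells and a different share of gene copies cannot be told apart in such a pool. Imprinted genes are expressed from 1 parental copy, and their control regions are fully methylated or unmethylated in sperm.

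Of the 32851 RefSeq gene starts with sequence (GRCm38.p6, the mm10 build), 6 had at least 2 members in the 250 bases before the start. These 6 stretches are shown because more than 1 member can be read in each of them. Capitals mark the CG of a member, and every other base, other CpGs included, is in lower case.
4930478L05Rik, chr16:78560066-78560315, plus strand: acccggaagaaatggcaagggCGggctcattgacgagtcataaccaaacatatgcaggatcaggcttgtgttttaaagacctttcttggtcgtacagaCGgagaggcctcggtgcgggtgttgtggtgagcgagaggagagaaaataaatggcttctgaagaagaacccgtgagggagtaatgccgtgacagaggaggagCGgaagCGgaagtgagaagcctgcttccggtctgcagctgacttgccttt
Gm10476, chr12:22467256-22467505, minus strand: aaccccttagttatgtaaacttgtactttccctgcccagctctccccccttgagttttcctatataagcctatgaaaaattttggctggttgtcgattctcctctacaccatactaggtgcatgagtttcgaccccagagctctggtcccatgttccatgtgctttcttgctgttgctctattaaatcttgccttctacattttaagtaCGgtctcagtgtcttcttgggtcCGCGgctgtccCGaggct
Gm40847, chr12:18853074-18853323, plus strand: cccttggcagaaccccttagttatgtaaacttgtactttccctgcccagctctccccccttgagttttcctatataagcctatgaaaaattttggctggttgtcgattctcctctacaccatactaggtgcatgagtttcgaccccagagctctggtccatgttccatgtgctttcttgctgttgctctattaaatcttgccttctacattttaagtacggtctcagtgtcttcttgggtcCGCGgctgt
Gm40862, chr12:23634846-23635095, minus strand: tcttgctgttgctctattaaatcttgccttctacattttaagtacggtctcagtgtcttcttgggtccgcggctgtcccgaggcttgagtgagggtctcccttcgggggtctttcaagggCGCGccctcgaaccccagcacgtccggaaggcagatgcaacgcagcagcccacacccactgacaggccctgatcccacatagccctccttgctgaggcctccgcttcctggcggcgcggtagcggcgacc
Ghdc, chr11:100770958-100771207, minus strand: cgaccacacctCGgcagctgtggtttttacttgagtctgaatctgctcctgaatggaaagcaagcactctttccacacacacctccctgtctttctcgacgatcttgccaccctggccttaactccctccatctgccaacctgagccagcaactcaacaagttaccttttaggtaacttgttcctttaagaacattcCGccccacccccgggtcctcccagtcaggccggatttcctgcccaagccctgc
Sgo2a, chr1:57985090-57985339, plus strand: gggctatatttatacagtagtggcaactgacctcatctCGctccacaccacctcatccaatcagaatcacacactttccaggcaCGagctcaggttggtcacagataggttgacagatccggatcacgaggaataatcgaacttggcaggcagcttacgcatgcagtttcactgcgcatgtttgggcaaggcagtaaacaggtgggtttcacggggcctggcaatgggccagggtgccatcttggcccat
All 685 listed positions that could be read in promoter windows fell on a CG. The motif CCGG, the MspI site, is its own reverse complement. It framed 12 of those 685 CpGs and 0 of the 55 members among them, and it occurred in 47.1% of all 32851 upstream stretches.

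The stretches of Gm10476, Gm40847 and Gm40862, all on chromosome 12, were near-identical over part of their length. Gm10476 and Gm40847 shared an unbroken run of 149 bases, Gm10476 and Gm40862 a run of 85, and Gm40847 and Gm40862 a run of 76. The run of 149 bases and that of 85 were each found in 2 of the 32851 stretches, and that of 76 in 3. Within the run of 76 bases lies the CGCG capitalised near the end of the Gm40847 stretch. Its CpGs averaged 54.8% and 56.8% at Gm40847. The matching CpGs averaged 72.0% and 70.9% at Gm10476, and 92.7% and 88.3% at Gm40862, where they are no members. So 3 copies of the same letters were listed at different levels. The sources used here do not say how reads with near-identical copies were assigned, so these values are uncertain.

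The 4 members upstream of 4930478L05Rik, a long noncoding RNA gene, lay among 13 CG of which 7 were listed. Averaged per library, they ran over 47.5%, 57.7% and 69.5% (lowest, median, highest) in PR sperm, against 56.8%, 59.1% and 62.1% in Control sperm. The Control values fell inside the PR range. Its 3 listed CpGs that were no members lay below the bound, the lowest at 40.02%. Both listed CpGs upstream of Sgo2a, which encodes a protector of centromeric cohesion in meiosis, were members, at 78.4% and 70.01%. Both at Ghdc were members too, at 60.8% and 77.8%.

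Facts of the whole series bear on these values. Summed over listed CpGs, a library held 6650912 to 11841657 read counts, with median coverage from 26 to 42 reads. Coverage was spread most widely in PR replicate 2, PR replicate 3 and Control replicate 4, where the 90th percentile of coverage was 76 to 82 reads, against 39 to 58 in the other 12. These 3 libraries are set apart below, a choice made after seeing the data. No library has fewer than 11 methylated reads at a listed CpG, so unmethylated CpGs are mostly not listed, and a CpG of low level needs more reads to be listed. The tissue label was checked at imprints. The 3 listed CpGs upstream of Meg3 averaged 97.99% and the 4 upstream of Rasgrf1 92.5%, as high as sperm is known to have at these paternally methylated regions. No CpG was listed within 1 kb of the starts of 8 maternally methylated genes, so these could not be read.

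**Figure D1:**
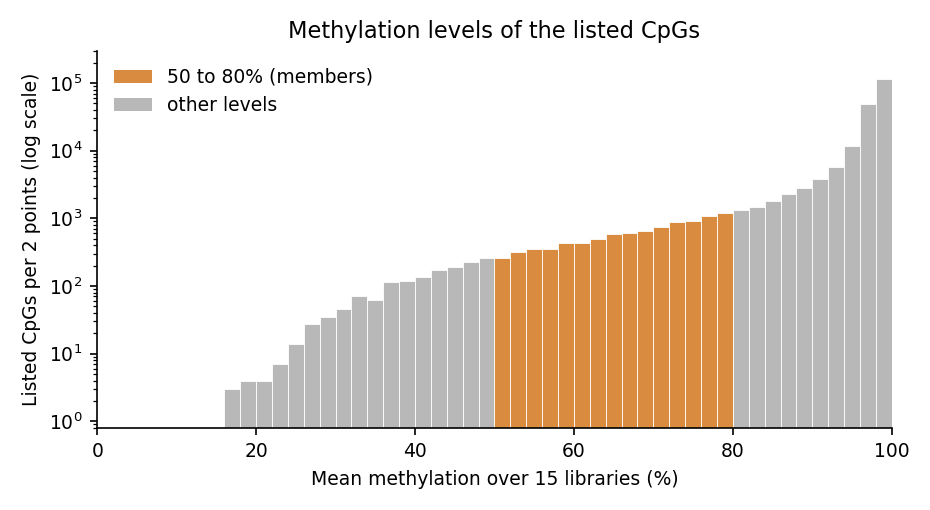
Number of listed CpGs (log axis) by mean methylation over 15 libraries, in steps of 2 points, without the ribosomal block and the deep CpGs. The 9313 members (orange) form a slope on the way to the 183287 CpGs at 90% or more.

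The members formed no peak of their own but a shoulder that thinned toward lower levels. Their levels had a median of 70.5%, with 4820 CpGs between 70 and 80%, 2774 between 60 and 70% and 1719 between 50 and 60%. Above them lay 9701 CpGs of 80 to 90% and 183287 of 90% or more, and below them 1485 under 50%. The bounds cut a continuum. Just inside the lower bound were CpGs at 50.01% to 50.02%, and just outside it CpGs at 49.96% to 49.99%, while the upper bound had 79.997% to 79.998% just inside and 80.003% just outside. Median coverage was 40.5 reads for members, against 32 for all listed CpGs.

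Members sat in company. Of the 9313, 7221 had another listed CpG within 200 bp, and the nearest one was itself a member for 3972 of them (55.01%). The nearest CpG was a member for 4.17% of all listed CpGs with a neighbour, and for 1.02% of those at 90% or more. Since the rule used the levels of both CpGs of a pair, this is a description of the selection and no test was made. The nearest CpG had 90% or more for 1638 members, 80 to 90% for 1276 and under 50% for 333. A further 2092 had none within 200 bp, and 2 lay next to a CpG of the same level range that had been left out for depth or as ribosomal DNA.

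Company faded with distance. A member's adjacent listed CpG was a member in 62.1% of cases at 2 to 10 bp, 49.9% at 51 to 100 bp, 32.9% over 200 and up to 500 bp and 9.07% over 5000 and up to 20000 bp. Adjacent members also moved together across the 15 libraries: after subtracting the diet means, the median Pearson r of a pair was 0.73 at 2 to 10 bp, 0.51 at 51 to 100 bp and 0.39 over 100 and up to 200 bp. It was 0.06 over 200 and up to 500 bp. CpGs a few bases apart can be read on the same molecules, so pairs at short range may share reads, and the r covers 15 libraries only.

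**Figure D2:**
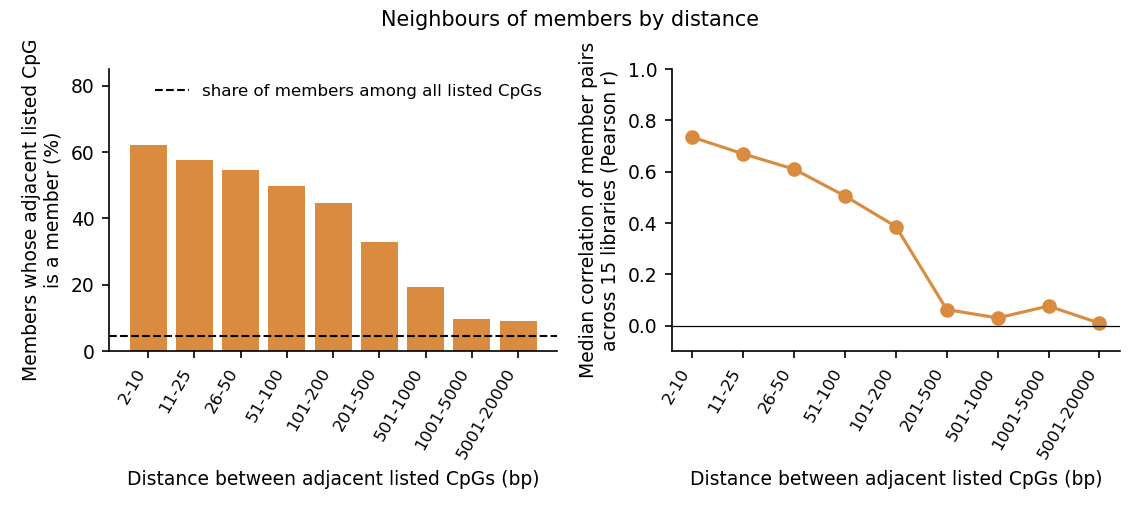
Left, percent of members whose adjacent listed CpG is also a member, by distance in bp, with the share of members among all listed CpGs (4.55%) dashed; right, median Pearson r across 15 libraries of adjacent member pairs. The share stays above the dashed line out to 20000 bp, while r is near 0 past 200 bp.

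Runs of consecutive members, with gaps of at most 200 bp, numbered 6531. Single members made up 4982 of them (53.5% of members), and 11 runs held 10 to 14 members each. The longest lay outside genes at chr3:109269809-109270062, with 14 members at 64.8% to 77.2%. The nearest other listed CpGs lay 18152 bp before and 27006 bp after it, at 98.2% and 99.3%. Its library means were 61.0%, 70.8% and 78.9% (lowest, median, highest) in PR sperm, against 68.4%, 72.8% and 80.7% in Control sperm. Its ranges overlapped over most of their length.

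A further 8 runs described here held 10 members each. They lay in Camta1, a calmodulin-binding transcription activator, in Atrnl1, an attractin-like membrane protein, in the noncoding Gm41366, near the pseudogene Rbx1-ps, and at 4 places outside genes. The run in Camta1, at chr4:151485928-151486050, varied most within PR sperm. Its library means were 49.5%, 68.4% and 77.2% (lowest, median, highest) in PR, against 49.1%, 67.1% and 74.1% in Control sperm. Low and high libraries occurred in both diets alike. The SD was 10.8 points in PR and 9.84 in Control sperm, and the counting SD of a single CpG at this level and its mean coverage of 36.01 reads would be 7.98. CpGs of a run that are read on the same molecules are not independent counts, and how many reads they share was not measured. The run at chr2:37765247-37765380, outside genes and nearest to Crb2, was the one furthest apart by diet, at 65.2% ± 5.59 in PR and 74.0% ± 6.23 in Control sperm.

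Members lay outside genes more often than the list they came from. Of the members, 45.1% lay in a RefSeq gene span and 47.4% further than 2 kb from any, against 61.7% and 33.6% of all listed CpGs. Near gene starts they made up a larger share of the listed CpGs. Unmethylated CpGs are mostly not listed, so this does not give the share of members among all CpGs there. Members made up 7.76% of listed CpGs up to 250 bp from the nearest start, 11.02% from there to 1000 bp, 5.22% from there to 5000 bp, 4.06% from there to 20000 bp and 4.05% from there to 100000 bp. Further away the share was 5.46%, above that at 1000 to 5000 bp. CpGs under 50% were also most frequent within 1000 bp and rose again furthest away, with 1.53%, 2.70%, 0.843%, 0.619%, 0.629% and 0.807%. By chromosome the share ran from 3.32% on chromosome 11 to 5.84% on chromosome 7, with 5.05% on X. On Y it was 8.39%, or 13 of 155 CpGs, and on unplaced scaffolds 34 of 147. As background, both hold sequence with many near-identical copies.

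Of 20804 genes with a listed CpG in their span or 2 kb around it, 3239 held a member, 180 at least 5 and 14 at least 10. Igh, the immunoglobulin heavy chain locus, held the most with 25 of its 101 listed CpGs, scattered over a span of 2751 kb. Of the 73 genes with at least 3 listed CpGs that were all members, the noncoding Gm46569 held the most, with 13, between 52.4% and 65.3%. Kat14, which encodes a subunit of a histone acetyltransferase complex, held 13 of 18 on chromosome 2. Its members averaged, per library, 61.1%, 66.9% and 73.0% (lowest, median, highest) in PR sperm, against 69.2%, 70.7% and 80.3% in Control sperm. Of the 8 PR libraries, 6 lay below the lowest Control library. The difference was -5.21 points, and 2 of the 13 CpGs had an unadjusted p under 0.05, as did 3.79% of all listed CpGs. The 13 lie close together, 24374 to 25226 bp from the gene's start, so the 2 may not be separate observations. This difference was the widest among the 10 genes with most members, and the mean over the 13 was not tested. Gm40904 held 19 of 32, Camta1 13 of 181, and Atrnl1 12.

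The start shared by Tmem267 and the noncoding 3110070M22Rik on chromosome 13 held the most members near a start. From 276 to 613 bp past the Tmem267 start, 19 of 30 listed CpGs were members, at 54.3% to 79.8%. Library means were 69.97%, 73.0% and 78.1% (lowest, median, highest) in PR sperm, against 59.96%, 78.1% and 82.3% in Control sperm. The SD was 2.97 points in PR and 7.94 in Control sperm, whose lowest value came from Control replicate 4, one of the widely covered libraries. The window that starts here had a mean coverage of 117 reads per CpG, under the limit of 160 but well over the median of 32. The part of this depth in the spread was not tested.

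Other starts with many members within 1 kb were Gm36619 (10 of 10 listed), Gm40904 (8 of 14), Gm10476 (7 of 7), Gm46830 (7 of 9) and Morn3 (7 of 8). Entpd1, which encodes the ectonucleotidase CD39, had 5 of 5, at 59.4% to 66.5%. Kcnmb2, a regulatory subunit of calcium-activated potassium channels, had 5 of 8. The noncoding 8030455M16Rik had 4 of 4, from 298 to 371 bp before its start. Its library means were 46.8%, 58.4% and 67.9% (lowest, median, highest) in PR sperm, against 29.4%, 54.2% and 69.1% in Control sperm. The PR values lay inside the Control range.

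Members were also counted in lists of genes, each over gene spans with 2 kb around them. Maternally imprinted genes held 15 members among 102 listed CpGs (14.7%, against 4.55% of all listed CpGs), all in 3 genes. Peg3, a zinc finger gene, held 6 of 9 on chromosome 7, within a stretch 22561 to 22771 bp past its start and so away from its promoter. Their mean was 66.2% ± 4.98 in PR and 66.9% ± 3.47 in Control sperm. Snrpn, which encodes a spliceosome protein, held 7 of 17, and Peg10, a retrotransposon-derived gene, 2 of 5. Paternally imprinted genes held 0 members of 34 listed CpGs. Meiosis and piRNA genes held 0 of 46, and haploid sperm genes 1 of 44, at Spata18. With 4.55% of all listed CpGs being members, lists this short cannot show a lack of them.

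Olfactory and vomeronasal receptor genes, a family of many related copies, held 42 members among 390 listed CpGs (10.8%). Protocadherins held 9 of 142, zinc finger genes 72 of 1616 (4.46%) and developmental transcription factors 55 of 995 (5.53%). Zfp180 had all 8 of its listed CpGs as members. Among developmental genes Sox6, a transcription factor of cartilage and red cell formation, held 9 of 45 and Dlx1as 5 of 5. Lhx4, a LIM homeobox gene of pituitary development, held 4 of 8. Genes of DNA methylation and chromatin held 8 of 150, with 3 each at the histone demethylase Kdm6b and at Tet3, which oxidises methylated cytosine. The remaining 2 were at Ehmt1, a histone methyltransferase, with 1, and at another gene of the list. Metabolism and growth genes held 3 of 245 (1.22%), in Igf1 and Lepr, and dynein and kinesin motors 13 of 1057 (1.23%). The hairpin of the microRNA Mir434 held 1 member, at 78.8%.

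Most members varied between libraries little more than counting allows. The dispersion compares the spread within a diet with binomial counting error and is 1 where they are equal. Its median was 1.13 for members, against 1.17 for CpGs under 50%, 1.08 at 80 to 90%, 0.94 at 90% or more and 0.95 for all listed CpGs. It exceeded 2 at 869 members (9.33%) and at 1.96% of CpGs of 90% or more. In points of methylation, the median SD within a diet was 7.73 for members where counting gives 7.42. Without the 3 widely covered libraries the members' median was 1.09, and 788 (8.46%) exceeded 2.

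The spread differed by the company a member kept. The 3972 members next to another member had a median dispersion of 1.12, and 6.62% exceeded 2. The 2092 with no listed CpG within 200 bp had 1.08 and 6.26%. The 1638 members whose nearest CpG had 90% or more had 1.31, and 376 of them (22.95%) exceeded 2. Without the 3 widely covered libraries these 1638 members had 1.17 and 219 (13.4%), while those next to a member had 1.09 and 8.21%. The excess at members with a neighbour of 90% or more was thus smaller, and still present, in the other 12 libraries. It was not limited to members: with a neighbour of 90% or more, 41.6% of CpGs under 50% and 9.75% of CpGs of 80 to 90% exceeded 2 over all 15 libraries.

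Among members, the 3 widely covered libraries differed from the other 12 mainly at those with a neighbour of 90% or more. The SD of that difference over these members was 8.68 points, where counting gives 4.48. It was 4.77 points (counting 4.42) over members next to a member, and 1.71 (counting 1.65) over CpGs of 90% or more. A difference of more than 15 points was seen at 230 members. Of these, 174 had a neighbour of 90% or more (10.6% of such members) and 12 stood next to a member (0.302%). CpGs outside the members with a neighbour of 90% or more showed it too. Those under 50% had an SD of 8.82 points (counting 3.71), with 39 of 214 (18.2%) beyond 15 points, and those of 80 to 90% had 5.13 points (counting 3.76). Of the 174 members named above, 123 were higher and 51 lower in the 3 libraries. For principal components, the deviations of each CpG from its mean were divided by their counting SD, which is smaller at greater depth. Equal components would each hold 7.14% of this scaled variance, and the first held 11.6% for members next to a member. For members with a neighbour of 90% or more it held 22.8%. Its weights there were 0.36 in PR replicate 2, 0.43 in PR replicate 3 and 0.59 in Control replicate 4. The other 12 had -0.30 to 0.09. The same libraries had weights of 0.28, 0.29 and 0.70 for members with no listed CpG within 200 bp, where the component held 9.83%. For CpGs of 90% or more they had 0.24, 0.15 and 0.85, and it held 7.72%. This pattern did not hold in every class. Members next to a member had 0.05, -0.12 and 0.45, and Control replicate 5 had the largest weight, 0.63. Members next to a CpG of 80 to 90% had 0.40, 0.03 and 0.38, with 0.43 in Control replicate 5. CpGs of 80 to 90% had 0.71, 0.03 and 0.20, with 0.29 in Control replicate 5. What sets coverage apart in the 3 widely covered libraries was not tested.

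**Figure D3:**
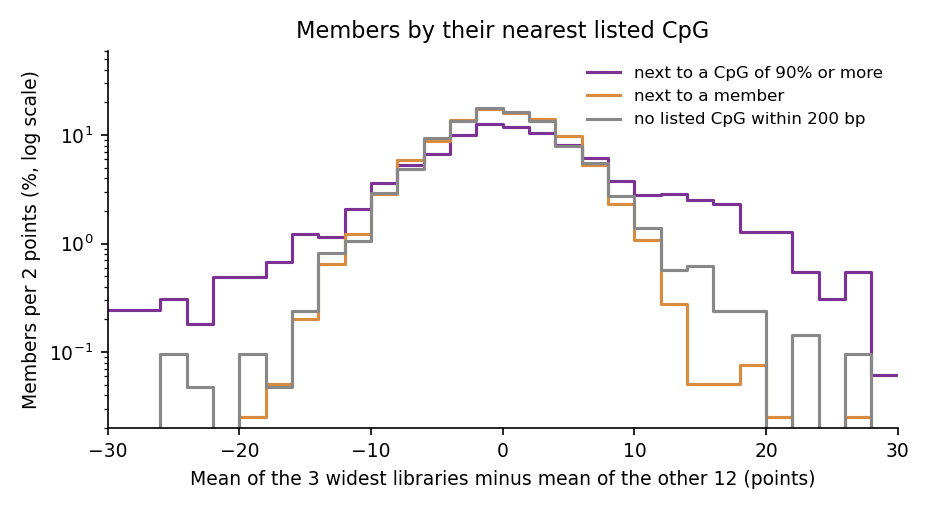
Percent of members (log axis) by the mean methylation of the 3 widely covered libraries minus that of the other 12, in points, drawn apart by the nearest listed CpG; values beyond 30 points are in the end steps. Members next to a CpG of 90% or more (purple) spread furthest, with 174 of 1638 beyond 15 points on either side.

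All 5 members of highest dispersion, at most 1 per gene, had a nearest listed CpG of 90% or more within 200 bp. At these 5 the mean of the 3 widely covered libraries minus that of the other 12 was -9.28 to -27.2 points. Of the 174 members named above, by contrast, most (123) were higher in the 3 libraries. In Sdk1, a synaptic adhesion gene, the CpG at chr5:141798276 had a dispersion of 6.29. It held 33.0% and 29.3% in PR replicates 2 and 3 and 30.8% in Control replicate 4, against 42.03%, 59.5% and 68.3% (lowest, median, highest) in the other 12 libraries. All 3 widely covered libraries lay below the other 12. Only 4 bp away, a CpG at 97.9% kept 92.1% to 97.2% in the 3 libraries and 96.2% to 100% in the other 12. Mean coverage was 79.9 reads at the Sdk1 CpG and 43.5 at this neighbour. Many reads counted at the Sdk1 CpG were therefore not counted at the neighbour, and the reason was not tested. Without the 3 libraries the dispersion in Sdk1 was 1.63. By diet the Sdk1 CpG had 52.5% ± 14.2 in PR and 53.1% ± 12.5 in Control sperm.

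At the other 4 the pattern was less clean. The CpG in Fbln1, an extracellular matrix gene, at chr15:85227793 had 54.0%, 82.7% and 90.9% (lowest, median, highest) in PR sperm, against 45.6%, 88.7% and 95.1% in Control sperm. The lowest PR value was that of PR replicate 2 and the lowest Control value that of Control replicate 4. Control replicates 5 and 7, which are not among the 3, were low there too, at 67.2% and 56.5%. The dispersion in Fbln1 was 6.75, and 3.96 without the 3 libraries. The CpGs at chr11:65372328, chr6:34333919 and in Bloc1s6os at chr2:122733046 had dispersions of 6.98, 6.80 and 6.39, and 5.20, 4.27 and 3.63 without the 3 libraries. At Bloc1s6os, leaving out PR replicate 2 alone gave 3.65.

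Over all members PR and Control sperm had about the same mean. Library means over the 9313 CpGs were 67.7%, 68.9% and 69.6% (lowest, median, highest) in PR sperm, against 67.7%, 68.9% and 70.03% in Control sperm. Neither diet stood above the other. The means were 68.8% ± 0.702 and 68.7% ± 0.793 (SD, n = 8 and n = 7), a difference of 0.08 points that was under the spread within a diet. Without the 3 widely covered libraries it was -0.31 points (PR 68.6% ± 0.652, Control 68.9% ± 0.754, n = 6 each). The sign also turned on leaving out any 1 of 5 libraries, namely PR replicates 2, 3 and 4 and Control replicates 4 and 5. Members of 50 to 60%, 60 to 70% and 70 to 80% overlapped between the diets likewise.

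**Figure D4:**
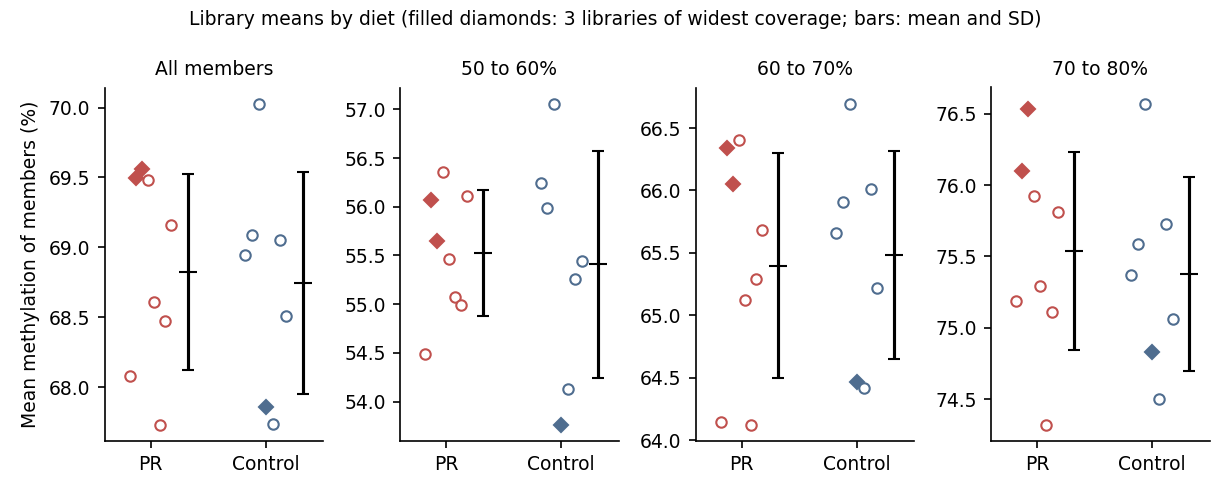
Mean methylation in percent of all members and of members in 3 level ranges, with 1 point per library, PR left of Control; filled diamonds are the 3 widely covered libraries and bars give mean and SD. The diets overlap in every panel, and each panel has its own axis, which does not start at 0.

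No single member differed between the diets after adjustment over all 204492 CpGs (quasi-binomial F test with Benjamini-Hochberg adjustment at 0.05, called in 0% of all CpGs). At an unadjusted p under 0.05 there were 290 of 9313 members (3.11%), against 3.79% of all listed CpGs. Of these, 169 were higher in PR (1.81% of members, 1.89% of all CpGs) and 121 lower (1.30%, against 1.9% of all CpGs). Limma on percent methylation and limma on logits called 0 members too. Differences of at least 10 points between the diet means were seen at 169 members (1.81%). In the whole list there were 248 such CpGs (0.121%). Counting error is wider at the level of members, with a median counting SD of 7.42 points against 2.34 at 90% or more. Its part in these differences was not tested. No difference of this size in 1 CpG passed the adjustment at this coverage.

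The members of smallest p in each direction were picked by the diet p itself, so their differences and the separation of their libraries are extremes. Over all members, 1.81% differed by at least 10 points. In Naxd, whose product repairs hydrated NADH and NADPH, the CpG at chr8:11498537 had 60%, 68.5% and 75.9% (lowest, median, highest) in PR sperm, against 37.1%, 58.2% and 61.1% in Control sperm. The ranges overlapped only at their ends, and 8 of 8 PR libraries exceeded the Control mean. The difference was 13.8 points (unadjusted p = 0.00213, quasi-binomial F test, adjusted p = 1). The CpG in the noncoding 2700054A10Rik at chr17:13548422 had 57.0%, 66.3% and 69.0% in PR sperm, against 46.2%, 54.5% and 55.4% in Control sperm. All 8 PR libraries lay above all 7 Control libraries there (unadjusted p = 0.00436, adjusted p = 1, same test). The 3 others higher in PR lay outside genes on chromosomes 7, 16 and 17, with differences of 12.2 to 15.6 points.

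Of the 5 lower in PR, 1 lay in a gene. In Sox6 the CpG at chr7:115568838 had 54.3%, 64.8% and 78.0% in PR sperm, against 69.2%, 75% and 91.9% in Control sperm. All 8 PR libraries were under the Control mean, and the ranges overlapped (difference -13.7 points, unadjusted p = 0.00599, adjusted p = 1, quasi-binomial F test). The 9 Sox6 members together averaged 69.7% ± 4.77 in PR and 76.9% ± 7.37 in Control sperm, and 3 of them had an unadjusted p under 0.05, against 3.79% of all listed CpGs. The 9 lie in 1 stretch, 471938 to 472320 bp from the gene's start, that includes the CpG picked for its small p, so the 3 are not separate observations. Of the 55 developmental gene members, these 3 were lower in PR at that p (1.9% of all CpGs were) and 0 were higher. The 4 others lower in PR lay outside genes on chromosomes 5, 6, 7 and 9, with differences of -11.4 to -13.2 points.

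Windows of 1000 bp with at least 3 listed CpGs pooled neighbouring CpGs. Of 28743 windows, 675 held at least 3 members. None of them was called after adjustment over all windows (quasi-binomial F test, smallest adjusted p = 0.999, called in 0% of all windows). At an unadjusted p under 0.05 there were 32 (4.74%), against 3.33% of all windows. Of these, 17 were higher in PR (2.52%, background 1.64%) and 15 lower (2.22%, background 1.69%). The share of intermediate windows was 2.96% without PR replicate 2, 2.52% without Control replicate 4 and 2.81% without Control replicate 6. Limma on percent methylation and limma on logits called 0 as well, with 6.37% and 0.741% of intermediate windows at an unadjusted p under 0.05. Intermediate windows had a median dispersion of 2.91, against 1.10 for all windows, both with a median of 4 CpGs. A molecule is counted at each of its CpGs within a window, and the part of this in the dispersion was not tested.

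The windows of smallest p were likewise picked by the diet p, so their differences are extremes. The window of Pzp, a protease inhibitor of the macroglobulin family, and of the overlapping Gm10069 began at 128487001 on chromosome 6. It held 8 members among 11 CpGs. It had 74.6%, 79.4% and 82.5% in PR sperm, against 66.8%, 73.7% and 78.7% in Control sperm (lowest, median, highest). All 8 PR libraries exceeded the Control mean, and the ranges overlapped (6.65 points, unadjusted p = 0.00327, adjusted p = 0.999, quasi-binomial F test). In Kdm2b, which encodes a histone demethylase that binds unmethylated CpGs, the window at 122986001 on chromosome 5 held 3 members of 3. It had 58.6%, 65.2% and 67.5% in PR sperm, against 49.5%, 56.9% and 66.1% in Control sperm. The difference was 7.36 points and again 8 of 8 PR libraries exceeded the Control mean (unadjusted p = 0.0141, adjusted p = 0.999, same test). The 3 others higher in PR lay outside genes on chromosomes 7, 14 and 16, by 5.17 to 7.09 points.

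Among windows lower in PR, the widest difference lay at 130200001 on chromosome 4, outside genes, with 67.1% ± 4.39 in PR and 77.4% ± 4.76 in Control sperm (n = 8 and n = 7). It was the smallest p of all intermediate windows (unadjusted p = 0.000497, adjusted p = 0.999, quasi-binomial F test). The window at 37765001 on chromosome 2 held the run near Crb2 named above, and all 8 PR libraries lay below its Control mean. In the noncoding Gm41067 on chromosome 13, 3 members of 3 had 58.6%, 70.6% and 73.6% in PR sperm, against 69.7%, 75.2% and 76.8% in Control sperm. The other 2 lay outside genes on chromosome 14. None of these windows passed the adjusted threshold.

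**Figure D5:**
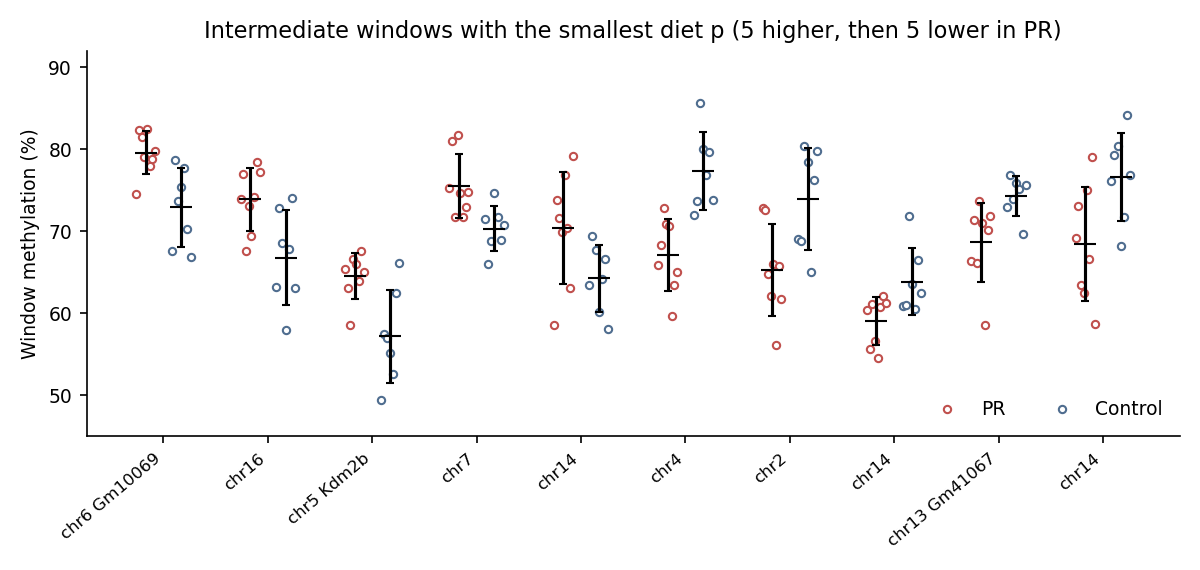
Methylation in percent per library (points) with mean and SD (bars) of the 10 intermediate windows with the smallest p, PR left of Control in each pair; the 5 windows higher in PR come first, then the 5 lower. The ranges of the diets overlap in all 10 windows, and none passed adjustment; the axis does not start at 0.

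The 5 intermediate windows of highest dispersion varied between libraries within a diet, and their unadjusted p between the diets was 0.221 or more (quasi-binomial F test, adjusted p = 0.999). The Tmem267 window beginning at 119488001 on chromosome 13 led with 41.9, at 79.6% ± 2.47 in PR and 79.9% ± 6.73 in Control sperm. Its neighbour in the same gene, beginning at 119489001, had 12.8, against 7.57 without Control replicate 4 and 6.37 without the 3 widely covered libraries. The window at 148820001 on chromosome 5 holds one of the runs of 10 members outside genes. It had 60.3%, 73.6% and 86.6% in PR sperm, against 61.8%, 77.1% and 83.8% in Control sperm, and both diets spanned low and high libraries. The window at 25978001 on chromosome 10 had 40% in Control replicate 5, far under the other 14 libraries; its dispersion was 12.8, and 5.09 without that library. It averaged 73.1% ± 6.78 in PR and 67.3% ± 12.8 in Control sperm, with 7 of 8 PR libraries above the Control mean. In Mid1 on chromosome X, whose span crosses the boundary of the pseudoautosomal region in C57BL/6 mice, 3 of 10 CpGs were members and the dispersion was 12.6.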

How the data were processed

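The deposited files give, per CpG, raw counts of methylated reads and of all reads, with no normalization by the authors. Bismark 0.7.12, Bowtie2 2.1.0 and the mm10 build are named in the submitters' processing notes; the sources used here do not give trimming, filters, strand merging or the rule behind the list of positions. All 15 files list the same 204492 positions.

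Percent methylation is methylated over total counts. Members, gene lists and rules were chosen with earlier results of these data known. Each CpG, and each window of 1000 bp with at least 3 listed CpGs, was fitted with a quasi-binomial logistic model on diet. The F test had 13 residual degrees of freedom, the dispersion was kept from falling under 1, and p-values were adjusted by Benjamini-Hochberg over all units (threshold 0.05). Values over many members were described without a test. On simulated data the single-CpG fit called none of the smallest planted differences, of 10 points, and part of the larger ones. The simulated counts carried counting error only, so differences are harder to call in the real data where the dispersion exceeds 1. Reads carry no molecular identifiers, so counting SDs cover counting error only. The coverage minimum of 10 reads removes no CpG.

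Named units are the 10 largest runs, the 5 CpGs and windows of smallest p in each direction and of highest dispersion (1 per gene), the 3 CpGs on either side of each bound, the 10 genes and 10 gene starts with most members, and up to 3 genes per list. Gene spans and upstream sequences come from RefSeq (GRCm38.p6), and exons and introns were not analysed here. Replicate numbers follow accession order and pair nothing. Alternatives were limma 3.58.1 (R 4.3.3) on percent and on logits with a pseudocount of 1, no dispersion floor, other level and coverage limits, other windows, and leaving out libraries. The work used Python 3.11.15, numpy 2.4.6, scipy 1.17.1 and pandas 2.3.3. One run of members and its gene are not reported here.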

Additional observations from a re-analysis of the deposited data

Results flagged for a closer look

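In 120 sets of library values within a diet, 5 held a library whose gap to its neighbour was large for the set, where chance flags about 1 in 20 sets. The CpG in 2700054A10Rik at chr17:13548422 had 46.2% in Control replicate 7, under the next Control value of 51.9%. The CpG in Bloc1s6os at chr2:122733046 had 35.8% in PR replicate 2, one of the 3 widely covered libraries, and the next PR value was 66.7%. The window at 25978001 on chromosome 10 had 40% in Control replicate 5, and the next Control value was 68.7%. The members at the start of Gm36619 had 72.7% in Control replicate 1, above the next at 64.4%. The members at the start of Gm40904 had 48.1% in PR replicate 6, under the next at 56.9%. No explanation for these values was tested.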

How the results depend on the processing

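The counts of 0 called members and 0 called intermediate windows held under all 24 and 21 alternatives tried. The 20 CpGs and windows of smallest p kept their direction in all 380 refits, none was called, and the lowest adjusted p was 0.112. They had been picked for their small p in these same libraries, so the kept direction follows largely from that choice. The share of members at an unadjusted p under 0.05, 3.11%, was 6.44% by limma on percent, 1.90% by limma on logits, 4.91% with no dispersion floor, and 2.59% to 3.34% on leaving out each library. That of intermediate windows, 4.74%, was 6.37% by limma on percent, 0.741% by limma on logits and 5.04% with no dispersion floor. On leaving out each library it was 2.52% (without Control replicate 4) to 4.74%. The members' mean difference between diets ran from -0.09 to 0.29 points on leaving out each library, so its sign is not settled. The median dispersion of members, 1.13, was 1.12 at 45 to 85%, 1.11 under 2 times the median coverage, 1.17 with at least 20 reads in every library, 1.09 without the 3 widely covered libraries, and 1.11 to 1.14 on leaving out each library. The share of members' neighbours that are members, 55.01%, lay between 45.5% (55 to 75%) and 59.5% (45 to 85%). No paired analysis was possible because replicate numbers only follow accession order.

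Depth limits what single CpGs can show: the median counting SD of a member was 7.42 points per library, close to the 7.73 points seen within a diet. The list leaves out CpGs with under 11 methylated reads in any library, so the lower side of the level range is thinned by an unknown amount.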
